A study of Homo sapiens with 9 samples.

Results

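The H/ACA small nucleolar RNAs and the small Cajal body RNAs were examined in HAP1 cells as the gene models whose names begin with SNORA or SCARNA followed by a number. This rule gave 132 of the 26485 gene models in the deposited count tables, 108 named SNORA and 24 named SCARNA, and used no measured value. HAP1 is a human line with a near-haploid genome that descends from KBM-7, a line of chronic myeloid leukaemia, and the labels give its genotype as wild type with no treatment. The groups differed by design in the number of sorted cells per library. There were 3 libraries of a single cell and 2 libraries each of 10, 100 and 1000 cells. The study's methods also give more DNase for 1000 cells than for 100 or fewer, so the 1000-cell libraries differed in that as well. RNA was isolated on magnetic beads with the NAxtra chemistry, treated with DNase and converted to sequencing libraries with the SMART-Seq Stranded kit, which the study used to assess whether the isolation is compatible with transcriptome sequencing down to 1 cell. The labels call the libraries biological replicates without saying whether they came from separate cultures, so the p-values below measure only the spread between these libraries, which may be technical.

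H/ACA RNAs fold into hairpins joined by a hinge, and a conserved ACA trinucleotide stands close to their 3′ end. Each hairpin can pair with a target RNA and place a uridine for conversion to pseudouridine by the enzyme dyskerin, with ribosomal RNA as the main target of the nucleolar guides and spliceosomal small nuclear RNA as that of the Cajal body guides. Most are cut out of introns of other genes, are not polyadenylated, and are kept stable by the proteins DKC1, NHP2, NOP10 and GAR1. Some Cajal body RNAs instead carry the C and D boxes of methylation guides, alone or together with H/ACA hairpins.

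By position, 127 of the 132 members matched a small nucleolar or Cajal body RNA of GENCODE release 29 on the GRCh38 build, 118 of them under the same name and 81 with the same start and end. The sequences came from GENCODE. Those of the members on which the results below turn are printed 5′ to 3′ in DNA letters, with the ACA that lies 3 bases before the end in capitals. SNORA73A (chr1:28507366-28507571, plus strand) and SNORA73B (chr1:28508559-28508762, plus strand) are shown because they were the highest members. They lie in introns of SNHG3, a host gene of small nucleolar RNAs, where RCC1 also spans them, and they were 93.2% identical over the longer sequence.
SNORA73A: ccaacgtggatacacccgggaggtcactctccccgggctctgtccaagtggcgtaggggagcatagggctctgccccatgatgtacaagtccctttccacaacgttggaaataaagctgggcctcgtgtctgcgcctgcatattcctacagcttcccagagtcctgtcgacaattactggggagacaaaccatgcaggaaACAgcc
SNORA73B: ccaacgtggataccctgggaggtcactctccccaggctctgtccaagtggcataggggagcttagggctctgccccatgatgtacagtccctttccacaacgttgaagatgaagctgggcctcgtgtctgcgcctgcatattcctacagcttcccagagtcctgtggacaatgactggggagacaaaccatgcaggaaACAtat

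The next set holds the other members that passed the test in single cells, SNORA70 (chrX:154400281-154400415, plus strand, an intron of the ribosomal protein gene RPL10) and SNORA48 (chr17:7574713-7574847, plus strand, an intron of the translation factor gene EIF4A1). It also holds SNORA64 (chr16:1962973-1963106, minus strand, an intron of the ribosomal protein gene RPS2), SCARNA21 (chr17:7906122-7906260, plus strand, an intron of the chromatin remodeller gene CHD3) and SCARNA12 (chr12:6967337-6967606, minus strand, an intron of the prohibitin gene PHB2). In SCARNA12 the capitals mark TGATGA, a form of the C box, because no ACA stands 3 bases before its end.
SNORA70: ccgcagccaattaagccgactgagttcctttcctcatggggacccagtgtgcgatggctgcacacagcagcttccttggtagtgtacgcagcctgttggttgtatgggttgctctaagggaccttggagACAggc
SNORA48: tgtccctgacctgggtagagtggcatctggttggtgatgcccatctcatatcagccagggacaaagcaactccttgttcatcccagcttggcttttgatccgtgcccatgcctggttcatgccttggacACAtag
SNORA64: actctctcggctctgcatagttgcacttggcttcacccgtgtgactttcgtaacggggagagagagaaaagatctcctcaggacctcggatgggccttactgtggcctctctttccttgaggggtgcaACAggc
SCARNA21: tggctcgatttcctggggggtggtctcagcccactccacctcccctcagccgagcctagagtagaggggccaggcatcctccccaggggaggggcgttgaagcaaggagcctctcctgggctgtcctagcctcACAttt
SCARNA12: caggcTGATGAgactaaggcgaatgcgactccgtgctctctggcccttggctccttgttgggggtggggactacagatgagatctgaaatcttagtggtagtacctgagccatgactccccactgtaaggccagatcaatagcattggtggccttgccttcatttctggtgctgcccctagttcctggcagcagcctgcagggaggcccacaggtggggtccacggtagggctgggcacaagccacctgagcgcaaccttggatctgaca

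The last pair are close copies, of which one lies inside an exon of another gene model. SNORA7A (chr3:12840312-12840450, minus strand) and SNORA7B (chr3:129397210-129397348, minus strand) were of equal length and differed by 2 edits, a 98.6% identity. SNORA7A is inside an exon of the ribosomal protein gene RPL32 and had 0 counts in all 9 libraries, whereas SNORA7B lies in an intron of the pseudogene RPL32P3 and had 4 to 119 counts per library. Reads that fit both copies were not counted.
SNORA7A: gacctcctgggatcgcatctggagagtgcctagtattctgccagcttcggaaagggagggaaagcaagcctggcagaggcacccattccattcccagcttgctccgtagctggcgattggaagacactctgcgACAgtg
SNORA7B: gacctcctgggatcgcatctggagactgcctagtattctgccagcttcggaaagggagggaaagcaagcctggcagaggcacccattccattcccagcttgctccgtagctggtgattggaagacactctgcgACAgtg

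The letters ACA stood 3 bases before the end in 82 of 107 SNORA sequences (76.6%), in 11 of 20 SCARNA sequences (55.0%) and in 4 of 288 SNORD sequences, the C/D box class (1.39%). Among 1225 GENCODE transcripts of 120 to 150 bases, which include many of these RNAs, the share was 21.4%. The hinge motif ANANNA, at least 40 bases from both ends, was found in 98.1% of SNORA and 95.0% of SCARNA sequences. The share was 63.8% in the transcripts of 120 to 150 bases and 18.8% in SNORD sequences. Among 92 SNORD models of low level the median length was 75 bases, too short for a motif that far from both ends. The 18.8% was thus limited by length and cannot show whether the classes differ in this motif. TGATGA was found in 3.74% of SNORA, 45.0% of SCARNA and 77.4% of SNORD sequences, and in 6.29% of the transcripts of that length. Only the transcribed strand was searched. The SCARNA names therefore covered sequences of both box types, while few SNORA sequences held TGATGA.

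The totals were 42842970 to 61645865 assigned counts per library. Both mates of a read pair were counted, reads that mapped to several places or overlapped exons of several genes were not, and no molecular identifiers were used. Levels are given as CPM, counts scaled to a common library total by TMM (a trimmed mean that sets library sizes equal over most genes), and as CPM per kilobase where genes are compared with each other. A level is a share of a library's counts, so it does not give the amount of an RNA per cell. The label of the line was checked against markers. The blood marker PTPRC was at 0 in 8 of 9 libraries, 8 blood and myeloid markers summed to between 0 and 2.80 CPM, 3 keratinocyte keratins were at 0 throughout, and BCR and ABL1, the fused genes of the KBM-7 lineage, summed to 13.8 to 44.2 CPM. Of the plasma cell markers, SDC1, which other cell types also carry, was at 42.6 to 61.8 CPM, and MZB1 and JCHAIN were at 0 in 8 of 9 libraries each. Of the fibroblast markers, the collagen gene COL1A1 was at 3.76 to 16.8 CPM, COL1A2 at 0 to 0.271 CPM, and DCN and LUM at 0 throughout. The part of such cells in the results was not tested. Blood markers were thus at or near 0 in this line of blood origin, which is known to grow attached.

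Of the 132 members, 106 lay in an intron of a gene model on the same strand, 17 overlapped an exon of another model, and 9 had no other model on their strand. Their median length was 135 bases, and a single copy ranged from 121 to 421 bases. In all, 12 members had 0 counts in every library. Of these, 10 were the members covered along their whole length by exons of another model, among them SNORA36A and SNORA56 in DKC1, SNORA43 and SNORA17 in SNHG7, SCARNA13 in SNHG10, and the pairs SNORA59A and SNORA59B and SNORA11D and SNORA11E, in which both names hold the same coordinates. No count could be assigned to such models, so their 0 is no measure of their level. The other 2 at 0 were SNORA70C and SNORA11C.

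A count was present in every library for 102 members. The mean level was at least 1 CPM for 89 members, at least 10 CPM for 33 and at least 100 CPM for 2, SNORA73A and SNORA73B. With at least 1 count as the limit, 110, 111 and 109 members were detected in Single Cell Rep 1, 2 and 3, and 113 to 119 in the libraries of more cells. With at least 10 counts, 101, 98 and 101 were detected in the single cells and 107 to 115 in the others. Both ranges of the single cells lay below those of the other libraries, by 2 members or more at the lower limit and 6 or more at the higher. Over all gene models, 14478, 14290 and 13968 were detected in Single Cell Rep 1, 2 and 3, and 16283 to 18634 in the others. The lower detection in single cells was thus not particular to the members.

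Together the members took 0.150%, 0.179% and 0.219% of the counts in Single Cell Rep 1, 2 and 3. Their share was 0.158% and 0.125% in the 10-cell libraries, 0.128% and 0.148% in the 100-cell libraries, and 0.139% and 0.129% in the 1000-cell libraries. Single Cell Rep 2 and Rep 3 were above all other libraries, and Rep 1 had a share below that of 10 Cell Rep 1. SNORA73A and SNORA73B accounted for 28.3% to 32.7% of the members' counts in each library. The C/D box RNAs moved in the same order among the single cells, at 0.102%, 0.136% and 0.150%, beside 0.0875% to 0.118% in the others.

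**Figure D1:**
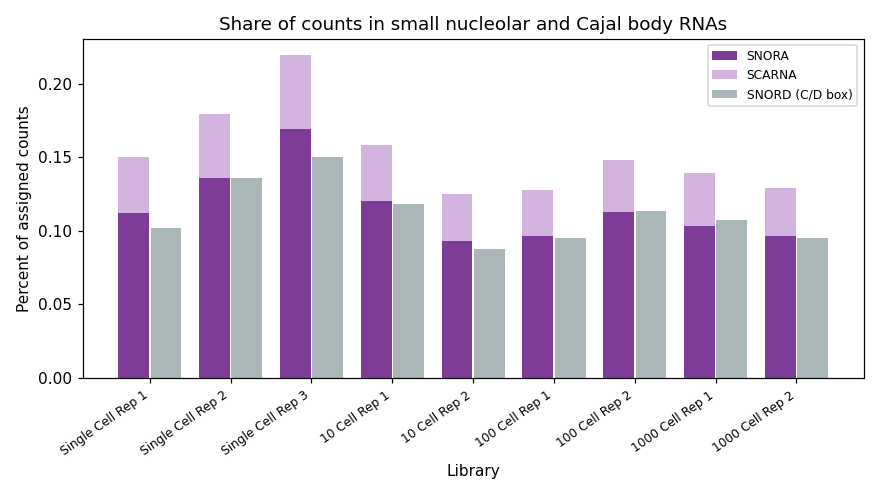
Percent of assigned counts (vertical axis, from 0) in SNORA and SCARNA models (stacked) and in SNORD models, for each of the 9 libraries (horizontal axis). The stacked bar is highest in Single Cell Rep 3 (0.219%) and Rep 2 (0.179%), while Rep 1 (0.150%) lies below 10 Cell Rep 1 (0.158%).

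The highest members per length were SNORA73B, at a mean of 1837 CPM per kilobase over the 9 libraries, and SNORA73A at 827. Both names belong to the family known as U17 or E1, which is known for a part in the processing of pre-ribosomal RNA rather than in guiding a modification. The count tables model SNORA73B with 158 bases and GENCODE with 204, so its value per length depends on the model used. Next came SCARNA21 (525 CPM per kilobase), SNORA70 (482), SNORA64 (432), SNORA22 (241), SCARNA12 (205), SNORA18 (193), SNORA67 (177), SNORA74A (173), SCARNA10 (166) and SNORA23 (162). SNORA22 has a copy in GENCODE that was 98.5% identical, so its counts are uncertain where reads fit both. Among members with a mean of at least 1 CPM, the median level was 43.3 CPM per kilobase for 71 SNORA and 48.6 for 18 SCARNA members.

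**Figure D2:**
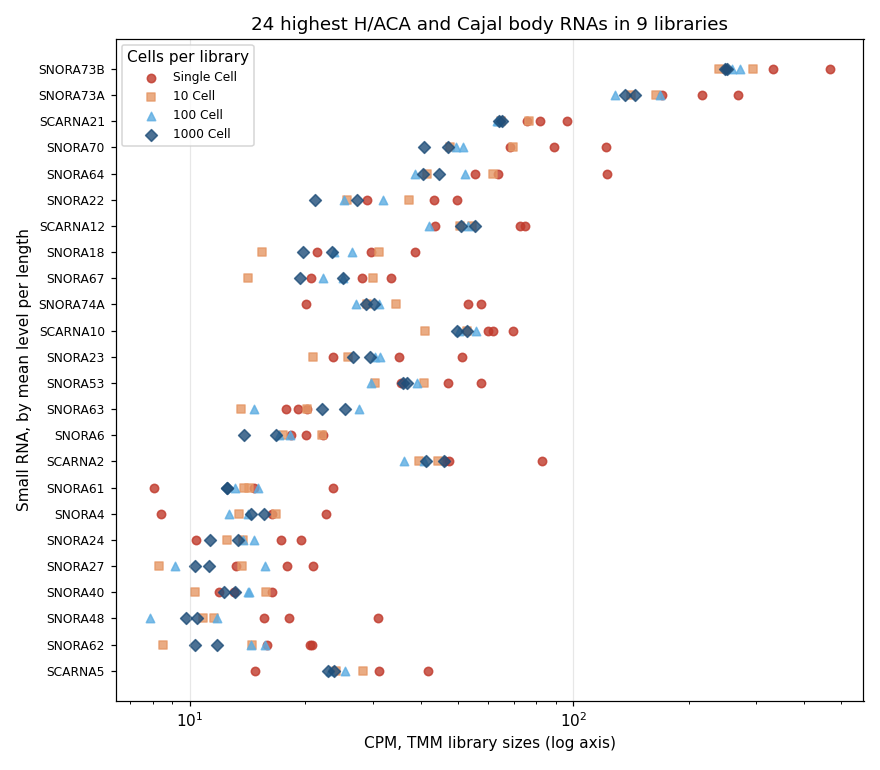
CPM with TMM library sizes (horizontal axis, log scale) of the 24 members of highest mean level per length (vertical axis, in that order), with a point for each of the 9 libraries and a colour and shape for each cell number. For SNORA73A and SNORA48 all 3 single cells lie above the 6 other libraries, SNORA73A by a narrow margin, and for SNORA61 the single cells lie on both sides of them.

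The first comparison asked whether single cells gave other levels of these RNAs than larger inputs did, with the 3 single cells set against the 6 libraries of 10, 100 and 1000 cells. SNORA73A, SNORA70 and SNORA48 were higher in single cells by edgeR's quasi-likelihood test with Benjamini-Hochberg adjusted p under 0.05 over all genes, and none was lower. These were 3 of the 114 members that passed the filter on low counts, or 2.63%. Over all 15603 genes tested, 2.22 percent were called higher and 4.45 percent lower, so the members' count of higher calls was close to that of all genes.

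SNORA73A had 170 CPM in Single Cell Rep 1, 217 in Rep 2 and 270 in Rep 3. The other libraries had 164 and 142 CPM at 10 cells, 128 and 168 at 100 cells, and 145 and 137 at 1000 cells. The groups did not overlap, but the lowest single cell exceeded the highest of the others by little. The log2 fold change was 0.57 (SE 0.13, edgeR adjusted p = 0.0318). SNORA73B, its neighbour in the same host, had 249, 332 and 466 CPM in the 3 single cells and 294, 239, 259, 272, 248 and 252 CPM in the libraries of 10, 100 and 1000 cells. Its Rep 1 lay inside the range of the others, and its log2 fold change of 0.42 (SE 0.15, edgeR adjusted p = 0.106) did not pass. SNORA73A and SNORA73B were 93.2% identical, so the counts of each are uncertain where reads fit both. The host SNHG3 had 55.4, 91.0 and 88.0 CPM in the single cells beside 88.9 ± 4.79 CPM (SD, n = 6), and its log2 fold change was -0.19 (edgeR adjusted p = 0.474).

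SNORA70 had 68.4, 89.1 and 122 CPM in the single cells. In the others it was at 69.8 and 47.7 CPM (10 cells), 49.6 and 51.5 (100 cells), and 47.0 and 40.8 (1000 cells). Single Cell Rep 1 lay below 10 Cell Rep 1, and the log2 fold change was 0.86 (SE 0.19, edgeR adjusted p = 0.0267). SNORA70 has many copies in the genome, the closest of which in GENCODE, SNORA70I, was 94.1% identical, so its counts are uncertain where reads fit both. Its host RPL10 had 451, 336 and 452 CPM in the 3 single cells, while the 6 other libraries averaged 353.6 ± 27.0 CPM (SD, n = 6), and did not pass (log2 fold change 0.22, edgeR adjusted p = 0.205).

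SNORA48 had 15.6, 18.2 and 30.9 CPM in the single cells. The other libraries had 11.6 and 10.8 CPM at 10 cells, 7.86 and 11.8 at 100 cells, and 10.4 and 9.75 at 1000 cells. The groups did not overlap, and the log2 fold change was 1.05 (SE 0.26, edgeR adjusted p = 0.0373). SNORA67, in another intron of EIF4A1, overlapped between the groups, at 28.2, 20.7 and 33.5 CPM beside 22.7 ± 5.43 CPM (SD, n = 6). EIF4A1 itself was listed at 0, since exons of the read-through model SENP3-EIF4A1 cover all of its own.

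The count of calls depended on the tool and on single libraries. DESeq2 called 16 of 116 members, 9 higher and 7 lower, beside 5.95 and 9.04 percent of all genes called higher and lower in that fit. The edgeR fit assumes a common spread for all libraries of a gene. Over 89 members, the median SD of log2 CPM was 0.633 among single cells and 0.296 among the others. With limma voom, which let the spread vary with cell number, 0 members were called, beside 0.0433 and 0.00618 percent of all genes. Without Single Cell Rep 3, which had the highest level of SNORA73A, SNORA70 and SNORA48, 1 member was called (SNORA70), beside 5.99 percent of all genes called higher and 8.97 percent lower, and without 10 Cell Rep 2, 100 Cell Rep 2, 1000 Cell Rep 1 or 1000 Cell Rep 2 none was. Without 100 Cell Rep 2 or either 1000 Cell library, 0 percent of all genes were called, and without 10 Cell Rep 2, 1.35 percent were called higher and 2.98 percent lower. Without Single Cell Rep 1, 19 of 116 members were called, 15 higher and 4 lower, beside 6.96 and 10.9 percent of all genes. Without Single Cell Rep 2, 10 of 116 were called, 8 higher and 2 lower, beside 8.48 and 11.3 percent. Calls over all genes thus also became more frequent without any one of the single cells. SNORA48 also lost its call without 10 Cell Rep 1, where 1.4 percent of all genes were called higher and 3.37 percent lower. SNORA48 and SNORA73A lost theirs without 100 Cell Rep 1, where SNORA70D was called lower (edgeR adjusted p = 0.0468) and 1.26 and 3.14 percent of all genes were called higher and lower. SNORA73A, SNORA70 and SNORA48 kept log2 fold changes above 0 in all of these fits.

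At an unadjusted p under 0.05, 16 members were higher (14.0%, beside 10.8 percent of all genes) and 5 lower (4.39%, beside 13.8 percent). Every single cell was above all 6 other libraries for 8 members, 7.02% of those tested beside 4.94 percent of all genes. These were SNORA73A, SNORA48, SCARNA2, SCARNA10, SNORA62, SNORA76A, SNORA26 and SNORA20. Every single cell was below for another 8 members, beside 10.1 percent of all genes, namely SNORA15, SNORA66, SCARNA11, SNORA2A, SCARNA14, SNORA58, SNORA13 and SNORA33. The log2 fold change was above 0 for 75 of 114 members (65.8%, beside 51.2 percent of all genes), with a median of 0.29 beside 0.01 for all genes. The median was 0.30 for 91 SNORA, 0.25 for 23 SCARNA and 0.14 for 139 SNORD models, so the 3 name classes had medians on the same side of 0. These medians and counts are descriptions of the lists and carry no test.

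**Figure D3:**
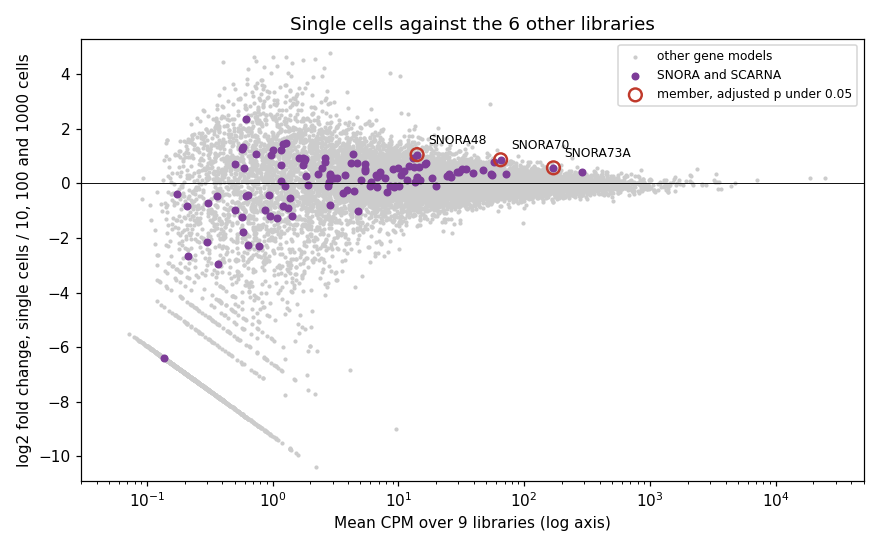
Log2 fold change of single cells over the 6 other libraries (vertical axis) against mean CPM over the 9 libraries (horizontal axis, log scale) for all 15603 genes tested (grey) and the 114 tested members (purple). The 3 circled members, SNORA73A, SNORA70 and SNORA48, passed the test, and the members above 10 CPM lie mostly above 0 while those near 1 CPM spread to both sides.

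The single cells differed from each other in this respect. Over the 89 members of at least 1 CPM, the median difference in log2 CPM from the mean of the 6 other libraries was 0.07 in Single Cell Rep 1, 0.38 in Rep 2 and 0.52 in Rep 3. The same median over 13468 genes was -0.01, -0.02 and -0.03. For 110 SNORD models it was -0.22, 0.26 and 0.26, so the C/D box RNAs of Rep 1 were on the other side of 0. Rep 3 held the highest of the 3 single-cell levels for 43 of the 89 members, Rep 2 for 29 and Rep 1 for 17.

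Among the Cajal body RNAs, SCARNA21 was the highest per length. It had 82.0, 75.7 and 96.6 CPM in the single cells, beside 76.7 and 64.7 CPM at 10 cells, 63.2 and 63.8 at 100 cells, and 65.0 and 64.1 at 1000 cells. All single cells lay above 5 of the other libraries, Rep 2 lay below 10 Cell Rep 1, and the log2 fold change of 0.35 (SE 0.11, edgeR adjusted p = 0.0765) did not pass. SCARNA10 had 69.8, 59.9 and 61.9 CPM in the 3 single cells beside 50.4 ± 5.04 CPM (SD, n = 6), without overlap (log2 fold change 0.34, SE 0.12, edgeR adjusted p = 0.113). SCARNA2, which is transcribed from its own promoter and had no host model on its strand, was at 46.2, 47.3 and 82.9 CPM beside 41.4 ± 3.52 CPM (SD, n = 6), again without overlap and without passing (log2 fold change 0.50, SE 0.18, edgeR adjusted p = 0.115).

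SCARNA12 had 72.5, 43.5 and 74.9 CPM in the 3 single cells beside 51.0 ± 4.78 CPM (SD, n = 6), with Rep 2 inside their range and Rep 1 and Rep 3 above it. SCARNA22, in an intron of WHSC1, was at 7.57, 6.92 and 4.64 CPM beside 7.03 ± 2.15 CPM (SD, n = 6). It was the only one of the 8 highest Cajal body RNAs with a log2 fold change below 0 (-0.14, SE 0.38, edgeR adjusted p = 0.858).

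The spread between single cells was widest, among members of at least 10 CPM, for SCARNA7, SCARNA6, SNORA74A, SNORA61, SCARNA5 and SNORA4. SCARNA7, in an intron of the importin gene KPNA4, had 15.3, 57.8 and 33.6 CPM in Single Cell Rep 1, 2 and 3, beside 26.5 ± 4.38 CPM (SD, n = 6). SCARNA5 and SCARNA6 share the host ATG16L1, an autophagy gene, and were both lowest in Rep 1. SCARNA5 was at 14.8, 41.7 and 31.2 CPM beside 24.6 ± 1.98, and SCARNA6 at 9.75, 27.4 and 31.2 beside 13.5 ± 2.44 (SD, n = 6 each).

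ATG16L1 had 17.4, 38.1 and 36.1 CPM in the 3 single cells, while the 6 other libraries averaged 37.1 ± 2.74 CPM (SD, n = 6). It was thus lowest in the same single cell as both of its RNAs, while their highest values came from different cells. KPNA4 was at 110, 146 and 122 CPM beside 126 ± 14.2 CPM (SD, n = 6), lowest in Rep 1 and highest in Rep 2, the same order of single cells as SCARNA7.

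SNORA74A, which lies within both SNHG4 and MATR3, was lowest in Single Cell Rep 2, at 53.3, 20.1 and 57.4 CPM beside 30.1 ± 2.53 CPM (SD, n = 6). SNORA4, in EIF4A2, was also lowest in Rep 2, at 16.3, 8.39 and 22.6 CPM beside 14.5 ± 1.46. SNORA61, in SNHG12, was lowest in Rep 1, at 8.07, 14.7 and 23.7 CPM beside 13.5 ± 1.03 (SD, n = 6 each). The hosts of these RNAs were each lowest in another single cell than their RNA. In Single Cell Rep 1, 2 and 3, SNHG4 had 9.27, 12.1 and 17.6 CPM and MATR3 727, 885 and 749. EIF4A2 had 329, 383 and 330 CPM, and SNHG12 53.2, 27.4 and 49.5. No member of these 6 passed the test between single cells and the others, with adjusted p from 0.177 to 0.842 (edgeR).

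The largest fitted increases belonged to low members. SNORA70F, a copy of SNORA70 in an intron of COBLL1 that was 85.2% identical to it, had 208 counts in Single Cell Rep 1, 0 in Rep 2 and Rep 3, and 5 to 25 in the other libraries. Its log2 fold change of 2.36 (SE 1.54, edgeR adjusted p = 0.384) rested on that 1 cell. Without that cell the fit gave -6.73, which rests on 0 counts in every single cell left and is no estimate of size. SNORA31, which overlaps an exon of TPT1 over 56.9% of its length, was at 0.830, 2.23 and 3.70 CPM beside 0.803 ± 0.415 CPM, and SNORA34 was at 2.65, 2.61 and 0.958 CPM beside 0.768 ± 0.364 CPM (SD, n = 6 each). Neither passed, with edgeR adjusted p of 0.243 and 0.263.

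The largest fitted decreases were also in low members. SNORA15, in an intron of the chaperonin gene CCT6A, had 2, 4 and 4 counts in the single cells and 15 to 43 in the others. Its log2 fold change was -2.97 (SE 0.98, edgeR adjusted p = 0.0855), and a copy in GENCODE was 97.8% identical. SCARNA11, in an intron of CHD4, had 0, 4 and 3 counts beside 7 to 20 (log2 fold change -2.66, edgeR adjusted p = 0.183). SNORA70D had 0 counts in all 3 single cells and 0 to 20 in the others, which with a floor of 3 counts over the single cells was at least 10.8-fold lower. This floor covers counting error only, and the adjusted p was 0.0775 (edgeR).

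In the narrower comparisons with 1000 cells as the reference, no member and no other gene was called by edgeR or, for the members, by DESeq2 or limma (0 percent of 15394 to 15597 genes by edgeR). Over all genes, DESeq2 called 0.592 percent higher and 0.25 percent lower in single cells, 0.338 and 0.363 percent at 10 cells, and 0.00494 and 0 percent at 100 cells. For single cells against 1000 cells, 2 of 114 members had an unadjusted p under 0.05 and were higher, SNORA73A and SNORA70, and 2 were lower, SNORA70D and SNORA15, beside 2.12 and 5.79 percent of all genes. The log2 fold change was above 0 for 77 of 114, beside 52.1 percent of all genes. For 10 against 1000 cells, 1 of 113 members was higher at that limit and 0 lower, beside 5.57 and 5.66 percent of all genes. This was SNORA74B, at 11.97 and 12.74 CPM against 8.14 and 8.21 (log2 fold change 0.60, SE 0.18, edgeR adjusted p = 0.355). For 100 against 1000 cells, 2 of 114 were higher, SNORA68 and SNORA62, and 1 was lower, SCARNA9L, beside 1.11 and 0.904 percent of all genes. The log2 fold change was above 0 for 69 of 114, beside 49.7 percent of all genes. The members' median log2 fold changes were 0.33, 0.07 and 0.09 in the 3 comparisons, beside 0.02, 0.01 and 0.00 over all genes. The 1000-cell libraries are shared by all 3. Members were called where a 10-cell or 100-cell library was left out. None was called where a 1000-cell library was left out, though that also left a group with 1 library. Without 10 Cell Rep 1, 3 of 115 members were called higher and 13 lower, beside 12.6 and 13.1 percent of all genes, and without 10 Cell Rep 2, 25 of 114 higher and 2 lower, beside 13.5 and 15.9 percent. Without 100 Cell Rep 2, 11 of 114 were called higher and 13 lower, beside 14.5 and 16 percent, and without 100 Cell Rep 1, 1 of 115 higher and 0 lower, beside 0.0496 and 0.0372 percent.

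The spread between single cells depended on the scale on which genes were matched. At 1 to 10 CPM, the median SD of log2 CPM among the 3 single cells was 0.776 for 56 members and 1.83 for 3593 gene models of any kind. For 92 SNORD models it was 0.972, so the low value was not particular to the members. In that range 1 member, SNORA29, had 0 counts in a single cell (1.79%), while 27.9% of all models and 2.17% of SNORD models had. At 10 to 100 CPM the median SD was 0.485 for 31 members and 0.479 for 7535 models. Matched on CPM per kilobase, the order was the opposite. At 10 to 100 CPM per kilobase the median SD was 0.654 for 57 members and 0.347 for 5639 models, and at 1 to 10 CPM per kilobase 13 of 36 members (36.1%) and 10.7% of all models had a 0 in a single cell. For SNORD models these values were 1.05 and 25%. The median length was 134 bases for members and 2514 to 3259 bases for all models at 1 to 10 CPM and in the bins per kilobase. An equal CPM thus means different levels per length in the classes compared.

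**Figure D4:**
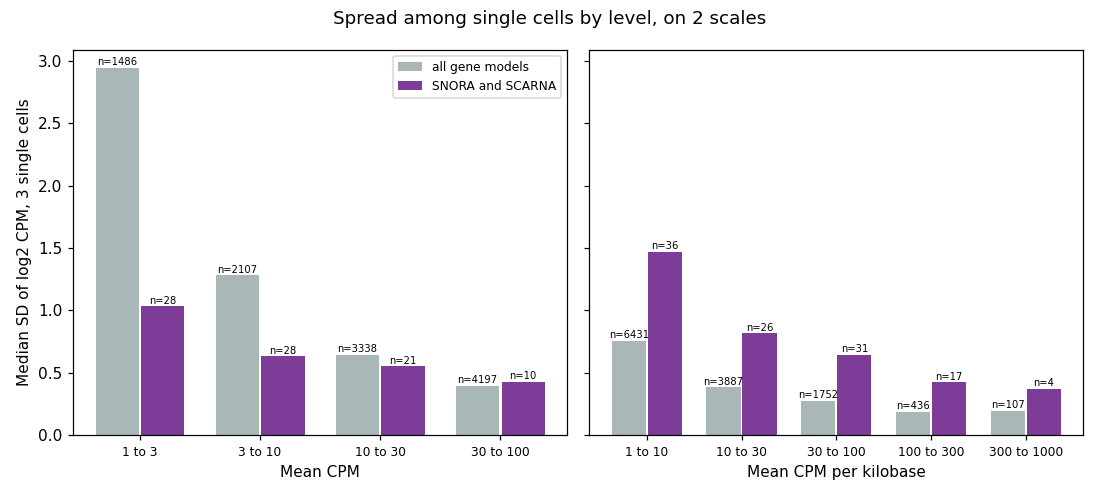
Median SD of log2 CPM among the 3 single cells (vertical axis) for all gene models and for SNORA and SCARNA members, grouped by mean CPM (left) and by mean CPM per kilobase (right), with the number of models above each bar. Members have the lower bar in the groups from 1 to 30 CPM and the higher bar in every group by level per length.

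Most members lie in introns of other genes, so levels were compared with those of the hosts. For 72 intronic members of at least 1 CPM, in 58 hosts whose exons were not mainly covered by other models, 33 were above their host per length. Pearson's r between the log2 levels was 0.12 and Spearman's rho 0.15 over these 72 members. Both values are descriptions, and members of a host share its level. The 17 members in genes with ribosomal protein names, 1 of them the pseudogene RPL32P3, had a median of 62.8 CPM per kilobase, beside 396 for their hosts, and 3 were above the host. The other 55 had a median of 41.2, beside 36.4 for their hosts, and 30 were above the host. Spearman's rho of the log2 fold changes of member and host in single cells was -0.02, and the member's was the higher for 55 of 72.

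**Figure D5:**
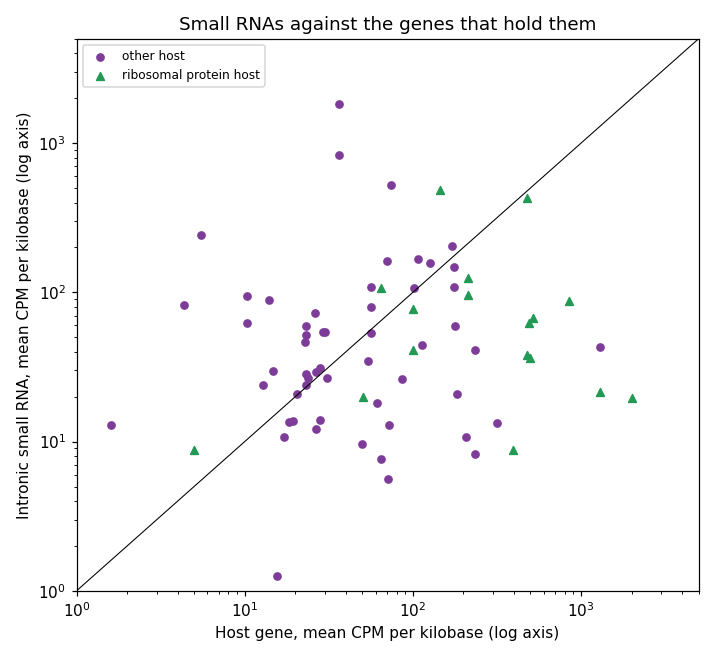
Mean CPM per kilobase of 72 intronic members (vertical axis, log scale) against that of the gene in which each lies (horizontal axis, log scale), with ribosomal protein hosts as triangles and the line of equal levels. The points do not follow the line, and most triangles lie below it.

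Members of 1 host differed in level. RPS2, a ribosomal protein gene at 475.6 CPM per kilobase, holds SNORA64 at 432 and SNORA10 at 38.2, an 11.3-fold difference. SNORA10 has a copy in GENCODE that was 98.5% identical, and reads that fit both were not counted. In EIF4A2, SNORA63 was at 149, SNORA4 at 109 and SNORA81 at 13.8 CPM per kilobase, where SNORA81 overlaps another model's exon in part. The 6 members that GENCODE places in TAF1D ranged from 21.5 (SNORA1) to 193 (SNORA18) CPM per kilobase, an 8.99-fold range. The 4 SNORA71 copies in SNHG17 ranged 2.47-fold, from 24.1 to 59.4 CPM per kilobase. Per kilobase, SNORA73B exceeded SNORA73A 2.22-fold, which rests on the model of 158 bases for SNORA73B, given 204 by GENCODE. In mean CPM over the libraries, SNORA73B was at 290 and SNORA73A at 171.

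RPS2 was called higher in single cells (log2 fold change 0.34, edgeR adjusted p = 0.0258), and its member SNORA64 was at 55.4, 63.7 and 123 CPM beside 46.6 ± 8.91 CPM (SD, n = 6). SNORA64 did not pass (log2 fold change 0.79, SE 0.23, edgeR adjusted p = 0.0671), with Rep 1 below 10 Cell Rep 1 at 61.9 CPM. SNORA10 had 4.07, 5.23 and 6.71 CPM in the 3 single cells and 6.62, 3.27, 5.13, 5.04, 5.03 and 4.62 CPM in the others, so its groups overlapped.

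Genes whose proteins carry and mature these RNAs were put through the same edgeR test between single cells and the others. Of 10 H/ACA particle and assembly genes, 0 passed in either direction by edgeR, beside 2.22 percent of all genes higher and 4.45 percent lower. With an unadjusted p under 0.05, 1 of the 10 was higher and 2 were lower, beside 10.8 and 13.8 percent of all genes. Log2 fold changes of these 10 genes had -0.13 as their median. DKC1, the pseudouridine synthase, was at 360 ± 76.4 CPM in single cells (SD, n = 3) and 373 ± 19.6 CPM in the others (SD, n = 6). SHQ1, a chaperone of dyskerin, had the smallest adjusted p of this list, with a log2 fold change of 0.55 (SE 0.16, edgeR adjusted p = 0.058). GAR1, a core protein of the particle, had 4.42, 16.5 and 33.1 CPM in Single Cell Rep 1, 2 and 3 while the other libraries lay between 16.7 and 20.6 CPM.

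Of 15 Cajal body and SMN complex genes 14 were tested, and 1 passed in each direction by edgeR, beside 2.22 percent of all genes higher and 4.45 percent lower. At an unadjusted p under 0.05, 1 was higher and 4 were lower, beside 10.8 and 13.8 percent of all genes. USPL1, a Cajal body isopeptidase, was higher (log2 fold change 0.63, edgeR adjusted p = 0.0295), and STRAP, which binds the SMN complex, was lower (log2 fold change -0.31, adjusted p = 0.0369). COIL, the coilin scaffold, was at 37.8 ± 1.44 CPM in single cells (SD, n = 3) and 47.4 ± 3.50 in the others (SD, n = 6) and did not pass (adjusted p = 0.127, edgeR). WRAP53, which carries RNAs to the Cajal body, had 7.16, 12.1 and 38.05 CPM in the single cells beside 16.9 ± 3.38 CPM (SD, n = 6). SMN1 was listed at 0 in all libraries and has a near-identical copy, with which it can share reads.

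Of 9 tested genes of lariat debranching and 3′ end trimming, 0 passed by edgeR, beside 2.22 percent of all genes higher and 4.45 percent lower. At an unadjusted p under 0.05, 2 were higher and 0 lower, beside 10.8 and 13.8 percent of all genes. The median log2 fold change of this list was 0.12. TERC, the telomerase RNA, ends in an H/ACA domain without being a member by name. It had 88.6, 34.6 and 105 CPM in the single cells, against 41.7 and 54.9 CPM at 10 cells, 34.0 and 44.4 at 100 cells, and 47.8 and 50.9 at 1000 cells. Rep 1 and Rep 3 were above all other libraries and Rep 2 was near the lowest, and the log2 fold change of 0.73 (SE 0.27, edgeR adjusted p = 0.121) did not pass.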

How the data were processed

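RNA of HAP1 cells was sequenced by the authors in 9 libraries as paired reads. The deposited values are read counts per gene model on hg38. Per the labels and submitters' processing notes, tools were FastQC 0.11.9, Trim Galore 0.6.7, HISAT2 2.2.1, SAMtools 1.16.1, featureCounts of Subread 2.0.6 and DESeq2 1.44.0. The annotation release is not given in the sources used here. No normalization was applied, and totals were 42842970 to 61645865 counts.

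Groups were compared with edgeR 4.0.16 under R 4.3.3 on the counts as deposited (TMM, filterByExpr, quasi-likelihood test, Benjamini-Hochberg adjustment over all genes tested at 0.05). The SE is the log2 fold change divided by the square root of the F statistic. SDs used log2 CPM with a prior count of 2. Alternatives used limma 3.58.1, DESeq2 1.42.0, other scaling, filters and depth, a replicate term, and each library left out. The script was tested on simulated data. Sequences came from GENCODE release 29, for matches that covered at least 70% of the longer model. Identity is 1 minus the edit distance over the longer length, in percent.

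Named were the 12 highest members and 8 highest SCARNA members per length, members past the test, the 6 with the largest SD among single cells at 10 CPM or more, the 3 largest changes each way, their hosts and neighbours in a host, and up to 4 genes of each protein list. Members named by unadjusted p, by groups without overlap or for counts of 0 were chosen after their values were seen. For a member within several models, the host is the one of shortest span, and hosts with over 50% of exon bases covered by other models were left out of the host comparison, choices made after the values were seen. The members and lists were chosen with earlier results of these data known.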

Additional observations from a re-analysis of the deposited data

Results flagged for a closer look

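Among the 26 named members, the 6 libraries of 10, 100 and 1000 cells were examined for a single library far from the rest by Dixon's criterion, and 4 members had one, where chance gives about 1 in 20 such groups. SCARNA21 was at 76.7 CPM in 10 Cell Rep 1, beside 63.2 to 65.0 CPM in the other 5. SNORA70 was at 69.8 CPM in 10 Cell Rep 1, beside 40.8 to 51.5 CPM. SNORA31 was at 1.61 CPM in 10 Cell Rep 1, beside 0.427 to 0.777 CPM. SCARNA12 was at 42.0 CPM in 100 Cell Rep 1, beside 50.6 to 55.3 CPM. Without 10 Cell Rep 1, 2 members were called in single cells against the others. Whether 10 Cell Rep 1 differed from the rest for a technical reason was not tested.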

How the results depend on the processing

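In single cells against the others, the 3 members called were also 3 with RLE factors, beside 2.49 and 4.33 percent of all genes called higher and lower. The count was 3 with upper quartile scaling (1.75 and 5.38 percent) and with libraries thinned to the smallest total (2.23 and 4.29 percent). With a minimum of 10 CPM it was 3 of 41 members tested (2.99 and 2.53 percent). It was 3 without members that overlap exons, and 2 without a filter (1.2 and 2.11 percent). DESeq2 called 16 (9 higher and 7 lower, beside 5.95 and 9.04 percent of all genes) and limma voom, which let the spread vary with cell number, 0 (smallest adjusted p 0.32, beside 0.0433 and 0.00618 percent). The replicate numbers did not pair the samples: the deviations of same-numbered libraries correlated between -0.0235 and 0.0245 over 16184 genes. A fit with the replicate number as a block called 0 members (smallest adjusted p 0.0523, beside 5.06 percent of all genes higher and 8.25 percent lower); Single Cell Rep 3 alone carries number 3 and adds nothing to that fit. With 1 library left out, the count ran from 0 to 19 for single cells against the others, from 0 to 0 for single cells against 1000 cells, from 0 to 27 for 10 against 1000 cells and from 0 to 24 for 100 against 1000 cells. The 19 came without Single Cell Rep 1, where 6.96 and 10.9 percent of all genes were called higher and lower, the 27 without 10 Cell Rep 2 (13.5 and 15.9 percent) and the 24 without 100 Cell Rep 2 (14.5 and 16 percent). Without 10 Cell Rep 1 the count was 16 (12.6 and 13.1 percent). In those fits the lone library is assumed to vary like the others. The log2 fold change of SNORA70F ran from -6.73 without Single Cell Rep 1 (edgeR adjusted p = 0.0373) to 2.95 without Single Cell Rep 2, and was -1.59 in limma voom. The -6.73 rests on 0 counts in the single cells left and is no estimate of size. The fold changes of SCARNA5, SCARNA7, SCARNA22, SNORA4 and SNORA61, none of them called, also crossed 0 in at least 1 alternative. The median SD among single cells, 0.633 over 89 members, was 0.474 without Rep 1 and 0.517 without Rep 3. The members' median log2 fold change was -0.11 for 10 against 1000 cells without 10 Cell Rep 1 and -0.10 for 100 against 1000 cells without 100 Cell Rep 2. The cause of these shifts was not tested. The 3 narrower comparisons called 0 members under every other alternative run.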
